A study of Mus musculus with 14 samples.

Results

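Txnip, the other alpha-arrestins of the Arrdc family, the thioredoxins and the partners of the factor MLX were followed in mouse embryonic fibroblasts. The cells were labelled as knockout for Tip60 (gene symbol Kat5) or as control. Tip60 is an acetyltransferase of histones and other proteins. The 9 genes, Txnip, Arrdc1, Arrdc2, Arrdc3, Arrdc4, Txn1, Txn2, Mlxip and Mlx, were taken by symbol from the 26270 gene identifiers of the count tables. They were chosen by their link to Txnip, whose own counts had been seen to differ between day 5 and day 3, so the values of Txnip are given as a description with no test. The contrasts of day 5 with day 3 are likewise a description for all 9 genes, and tests are given for the other 8 genes in the contrasts of knockout (KO) with control cells. The difference between the KO effects at day 5 and at day 3 is also the difference between the day contrasts of KO and control cells. For the 9 genes its adjusted p-values are therefore a description too. All 9 genes passed the filter on low counts.

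RNA was sequenced in 14 libraries of fibroblasts isolated from E13.5 embryos and grown in 3% O2. KO cells, labelled Tip60-/-, were collected at day 5 of 4-hydroxytamoxifen (4 libraries, from embryos of 3 litters) and at day 3 (3 libraries, from embryos of 2 of those litters). Control cells, labelled Tip60+/+, were collected at day 5 (4 libraries, from embryos of 2 other litters) and at day 3 (3 libraries from 1 litter, 2 of them from the same embryo). The protocol text gives 250 nM of the drug for all libraries and does not say separately whether control cells received it, and the recombinase that the drug acts on is not named. The litter labels 1 and 2 occur in both genotypes, but with different embryo identifiers, and litters are told apart here by those identifiers. By the embryo identifiers no litter held both genotypes, so genotype and litter cannot be told apart, and 5 of 7 KO libraries against 1 of 7 control libraries were male.

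TXNIP binds the reduced active site of thioredoxin and holds back its activity, and as an alpha-arrestin it links membrane proteins such as the glucose transporter GLUT1 to ubiquitin ligases and endocytosis. The other alpha-arrestins share the arrestin fold and carry short proline-tyrosine motifs that ligases of the NEDD4 family recognise, but they are not known to bind thioredoxin as TXNIP does. Transcription of Txnip and Arrdc4 is raised when glucose 6-phosphate builds up in the cell: MondoA (gene symbol Mlxip) or its relative ChREBP (Mlxipl) then enters the nucleus with MLX and binds pairs of E-box-like letters called carbohydrate response elements. Thioredoxin itself is a small protein that reduces disulfides, with a cytosolic form encoded by Txn1 and a mitochondrial form encoded by Txn2.

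The promoters of Txnip and Arrdc4 are shown because these genes are the known direct targets of MondoA and MLX among the 9 and had the highest KO-to-control folds at day 5. RefSeq promoters on GRCm38.p6, from 250 bases before to 50 bases after the annotated start, were found for all 9 genes. The Txnip promoter is at chr3:96557707-96558006 on the plus strand, and that of Arrdc4 is at chr7:68749189-68749488 on the minus strand. Capitals mark CACGNG on either strand, an E-box-like motif that includes the perfect E-box CACGTG.
Txnip: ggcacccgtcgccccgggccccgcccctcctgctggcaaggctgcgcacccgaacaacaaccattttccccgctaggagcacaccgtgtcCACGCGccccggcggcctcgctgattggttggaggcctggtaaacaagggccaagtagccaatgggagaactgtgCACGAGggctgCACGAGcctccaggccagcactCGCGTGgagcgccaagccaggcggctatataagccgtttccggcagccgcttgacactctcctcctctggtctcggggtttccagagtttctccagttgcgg
Arrdc4: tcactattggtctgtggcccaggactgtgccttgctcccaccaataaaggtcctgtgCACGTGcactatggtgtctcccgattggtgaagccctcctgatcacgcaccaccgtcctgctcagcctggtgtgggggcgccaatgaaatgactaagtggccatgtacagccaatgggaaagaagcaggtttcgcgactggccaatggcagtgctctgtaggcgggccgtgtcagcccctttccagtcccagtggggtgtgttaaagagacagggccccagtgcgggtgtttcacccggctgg
CACGNG occurred 4 times in the Txnip promoter, with first bases 160, 85, 74 and 52 bases before the start. The matches at 85 and 74 lie in the same orientation with 5 bases between them, the spacing of a carbohydrate response element. Such a pair was searched after the sequence had been seen, and it was present in 16 of 32851 promoters (0.0487%), none of the other members among them. The Arrdc4 promoter held 1 match, the perfect E-box CACGTG at 193 bases before the start. Arrdc1 held 2 matches, and Arrdc2 and Mlx held 1 each. Arrdc3, with 3 annotated promoters, and Txn1, Txn2 and Mlxip held 0 in these windows. For comparison, 27.5% of all promoters held CACGNG and 7.15% held CACGTG. The letters CCAAT, on either strand, occurred 2 times for Txnip and 6 times for Arrdc4 and at least once in 37.4% of all promoters. GTAAACA, the core letters bound by forkhead factors, occurred once for Txnip and in 3.65% of all promoters. These matches describe letters and not bound sites.

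Total counts were between 2187168 (KO day 3 replicate 3) and 39203154 (KO day 3 replicate 2) per library, and 14327 genes were tested. Kat5 itself averaged 18.4 ± 1.14 CPM (counts scaled to library size) in KO cells and 30.9 ± 0.923 CPM in control cells at day 5 (SD, n = 4 each), and 19.9 ± 1.41 CPM in KO cells and 31.9 ± 0.408 CPM in control cells at day 3 (SD, n = 3 each). Kat5 was lower in KO cells (edgeR adjusted p = 1.59e-06 at day 5 and 2.02e-05 at day 3) but not at 0, and which exons the deletion removes is not given in the sources used here. Fibroblast markers summed to between 31100 and 56000 CPM with none of 10 at 0 in any group, and markers of blood and liver summed to at most 0.363 CPM. Control day 5 replicate 4, the only library of its litter and the only male control, stood between the genotypes: on the first principal component (53.1% of the variance) it was at 0.0714, with the KO libraries between -58.9 and -26.1, the other day 5 controls between 33 and 39.7, and the day 3 controls between 67.8 and 74.3. Its Kat5 level, 30.9 CPM, was within the range of the other control libraries (29.8 to 32.3 CPM) and above that of the KO libraries (17.3 to 21.1 CPM).

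Txnip (chromosome 3, 96557957 to 96561857) was higher in KO cells at day 5 than in any other group. It had 95.8, 105, 138 and 131 CPM in the KO libraries at day 5, and 5.38, 5.16 and 7.54 CPM in those at day 3. In control cells it had 9.59, 5.71, 6.03 and 31.5 CPM at day 5, and 1.26, 2.10 and 1.87 CPM at day 3. From low to high the groups were ordered as control day 3, KO day 3, control day 5 and KO day 5, and in this order KO day 3 and control day 5 overlapped while each of the other neighbouring groups did not. The mean was 117 ± 20.2 CPM in KO cells at day 5 and 13.2 ± 12.3 CPM in control cells at day 5 (SD, n = 4 each). At day 3 the means were 6.03 ± 1.32 CPM in KO cells and 1.74 ± 0.437 CPM in control cells (SD, n = 3 each). In such bulk RNA, more cells with Txnip transcripts and more Txnip transcripts per cell cannot be told apart.

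The fitted KO-to-control ratio of Txnip was 8.69-fold at day 5 (log2 3.12 ± 0.45, SE) and 3.42-fold at day 3 (log2 1.77 ± 0.764, SE). Control day 5 replicate 4, at 31.5 CPM, was the highest control library, and without it the day 5 ratio was 16.2-fold (log2 4.02 ± 0.205). Between day 5 and day 3, Txnip differed 19.2-fold in KO cells (log2 4.27 ± 0.579) and 7.56-fold in control cells (log2 2.92 ± 0.671) (4.05-fold in control cells without control day 5 replicate 4). Within single embryos sampled at both days the day 5 to day 3 ratio was 19.4, 26.7 and 17.3 in the 3 KO embryos. In control embryos it was 7.64 and 4.56 for 218-e1, against each of its day 3 libraries, and 3.23 for 218-e6. Both ratios of 218-e1 share its day 5 library, so the 6 ratios are not all separate. They were all above 1, and each KO ratio was higher than each control ratio. The fitted difference between the KO effects on Txnip, day 5 minus day 3, was 1.35 ± 0.93 (log2, SE). On leaving out each library it was from 1.07 to 2.26.

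The low groups rest on few counts. Txnip had 11 counts in KO day 3 replicate 3, which gives an exact Poisson 95% interval of 2.58 to 9.24 CPM, and 11 counts in control day 3 replicate 1, with an interval of 0.627 to 2.25 CPM. These intervals cover counting error only. The antisense long noncoding gene Gm15441 spans all 3901 bases of the Txnip locus and had 0 to 5 counts per library. Whether the counting used strand is not given in the sources used here, so reads of the pair cannot be told apart with certainty.

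**Figure D1:**
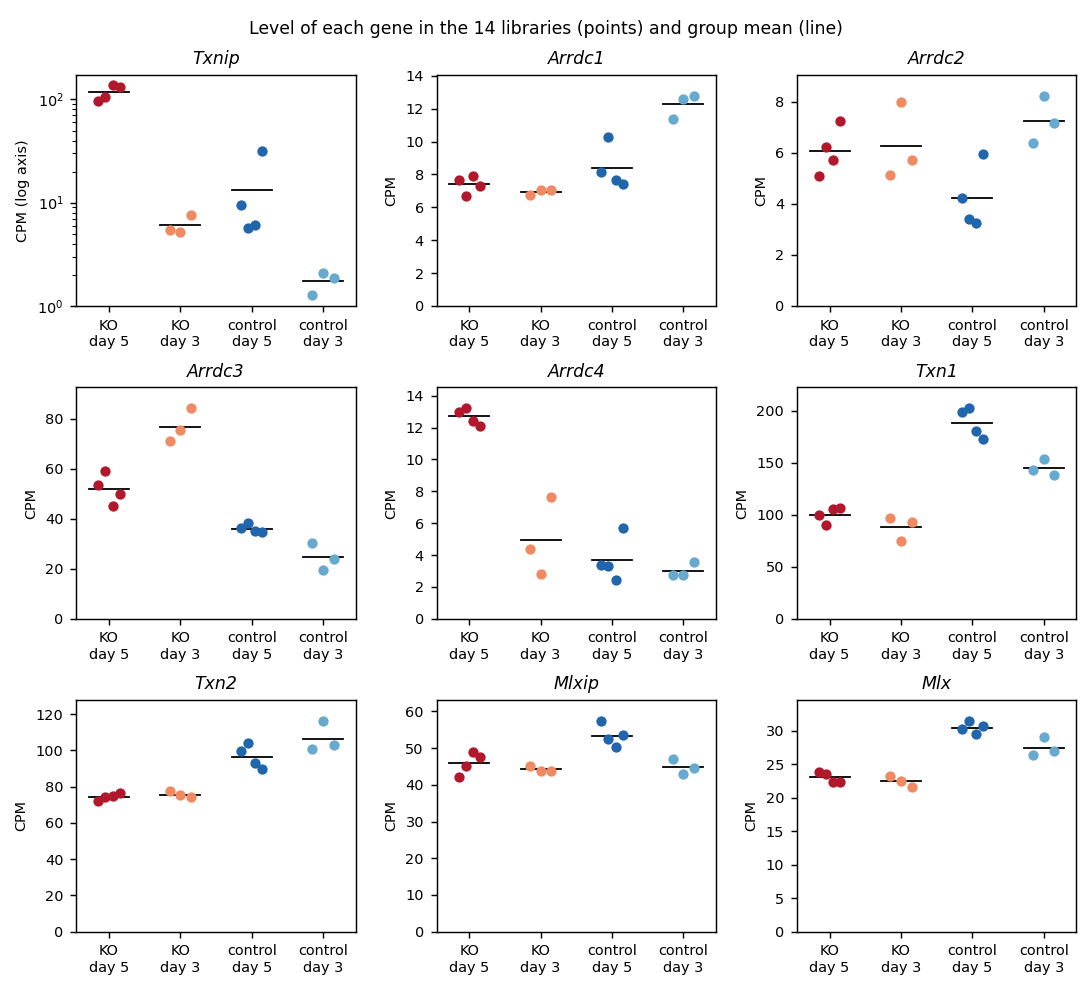
Level of each of the 9 genes in CPM (y axis, logarithmic for Txnip and linear from 0 for the others) in KO day 5, KO day 3, control day 5 and control day 3 libraries (x axis); points are libraries and lines are group means. Txnip lies between 95.8 and 138 CPM in KO cells at day 5 and at or below 31.5 CPM in every other library, and Arrdc4 has its 4 highest values in the same 4 libraries.

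Arrdc4, an alpha-arrestin that works with NEDD4-type ligases in the turnover of membrane proteins and in vesicle release, was the other member highest in KO cells at day 5. It had 13.0, 13.2, 12.4 and 12.1 CPM in KO libraries at day 5, against 3.35, 3.32, 2.44 and 5.67 CPM in control libraries at day 5. The groups did not overlap, and the fold was 3.37 (log2 1.75 ± 0.239, SE; edgeR quasi-likelihood test, Benjamini-Hochberg adjusted p = 3.67e-05). In what follows a gene is said to be called, or to rise or fall, where the adjusted p over all tested genes was below 0.05. At day 3 it had 4.38, 2.82 and 7.64 CPM in KO libraries, against 2.74, 2.72 and 3.54 CPM in control libraries, and these ranges overlapped. The day 3 fold of 1.76 (log2 0.82 ± 0.308) had an adjusted p of 0.038. That call was lost without KO day 3 replicate 4 (0.262), without control day 3 replicate 1 (0.0943) or replicate 2 (0.111), with the 2 control libraries of 1 embryo summed (0.0836) and with sex as a covariate (0.106). Arrdc4 in KO cells was 2.4-fold higher at day 5 than at day 3 (log2 1.26 ± 0.267), and in control cells the ratio was 1.26 (log2 0.33 ± 0.288). The KO effect on Arrdc4 was larger at day 5 by 0.93 ± 0.39 on the log2 scale, with an adjusted p of 0.126. Without control day 5 replicate 4 this difference was 1.20 (adjusted p = 0.0196), and without KO day 3 replicate 4 it was 1.32 (adjusted p = 0.0329).

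Arrdc3, an alpha-arrestin that promotes ubiquitination and trafficking of beta-adrenergic receptors and integrin beta-4, had its peak in KO cells at day 3 instead. It had 53.5, 59.2, 45.3 and 50.1 CPM in KO libraries at day 5, against 36.2, 38.4, 35.3 and 34.6 CPM in control libraries at day 5. At day 3 the KO libraries had 71.1, 75.6 and 84.2 CPM, against 30.4, 19.5 and 24.1 CPM in control libraries. No pair of neighbouring groups overlapped in the order control day 3, control day 5, KO day 5 and KO day 3. Arrdc3 was higher in KO cells by 1.44-fold at day 5 (log2 0.52 ± 0.115, adjusted p = 0.00161) and by 3.14-fold at day 3 (log2 1.65 ± 0.139, adjusted p = 6.44e-07). The KO effect was smaller at day 5 than at day 3 by 1.13 ± 0.179 on the log2 scale (log2 difference -1.13, adjusted p = 0.00127). Over the same days it moved in opposite directions in the genotypes: the day 5 to day 3 ratio was 0.676 in KO cells (log2 -0.57 ± 0.123) and 1.48 in control cells (log2 0.56 ± 0.13). Within embryos the ratio was 0.833, 0.599 and 0.596 in KO cells and between 1.19 and 1.86 in control cells. In KO cells Txnip was thus higher, and Arrdc3 lower, at day 5 than at day 3.

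Arrdc1, known for the budding of vesicles from the plasma membrane, was lower in KO cells at day 3. It had 6.75, 7.04 and 7.04 CPM in KO libraries at day 3, against 11.4, 12.6 and 12.8 CPM in control libraries at day 3 (log2 -0.83 ± 0.15, adjusted p = 0.000405). At day 5 it had 7.69, 6.67, 7.92 and 7.32 CPM in KO libraries, against 8.17, 10.3, 7.66 and 7.41 CPM in control libraries, and the ranges overlapped (log2 -0.19 ± 0.122, adjusted p = 0.206). The day 3 controls stood above the other 3 groups, which overlapped with their neighbours. The difference between the KO effects was 0.64 ± 0.193 (log2, adjusted p = 0.0392), a call that was lost on leaving out any of 10 of the 14 libraries in turn.

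Arrdc2, an alpha-arrestin whose transcription in muscle responds to glucocorticoids and to fasting, had 5.1, 6.25, 5.74 and 7.26 CPM in KO libraries at day 5, against 4.25, 3.42, 3.26 and 5.96 CPM in control libraries at day 5. The ranges overlapped, and the fold of 1.42 (log2 0.51 ± 0.201) had an adjusted p of 0.0464. The call was lost without KO day 5 replicate 2 (0.0824), replicate 3 (0.0649) or replicate 4 (0.13) and without control day 5 replicate 1 (0.0867), replicate 2 (0.145) or replicate 3 (0.112). It was also lost with no filter on low counts (0.0614), with only the day 5 groups fitted (0.0674), with sex as a covariate (0.14) and with the 2 day 3 control libraries of 1 embryo summed (0.0506). At day 3 Arrdc2 had 5.14 to 7.98 CPM in KO libraries and 6.39 to 8.25 CPM in control libraries (log2 -0.31 ± 0.242, adjusted p = 0.292). All neighbouring groups of Arrdc2 overlapped in their order of means. Without control day 5 replicate 4 the KO effect was larger at day 5 by 1.05 (log2, adjusted p = 0.0147), against 0.82 ± 0.314 with all libraries (adjusted p = 0.0954).

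Per kilobase of counted gene length, which allows levels of different genes to be compared, the make-up of the 5 alpha-arrestin transcripts differed between groups. Their sum was 57.1 to 70.3 CPM per kb in KO cells at day 5 and 26.4 to 31.6 at day 3, and 17.1 to 27.9 in control cells at day 5 and 16.8 to 17.7 at day 3. Txnip made up 59.9% to 70.0% of that sum in KO cells at day 5 and 6.49% to 8.51% at day 3. In control cells the Txnip share was 10.4% to 40.4% at day 5, the highest in replicate 4, and 2.53% to 4.46% at day 3. Arrdc3 was the largest component in KO cells at day 3, with 65.0% to 65.8%, and Arrdc1 with Arrdc3 made up most of the sum in control cells at day 3, with Arrdc1 at 36.3% to 42.3%. Arrdc4 stayed between 2.51% and 6.11% in every library. Arrdc5, a further member of the family that was not among the 9, had 2 counts in all, both in KO day 5 libraries.

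**Figure D2:**
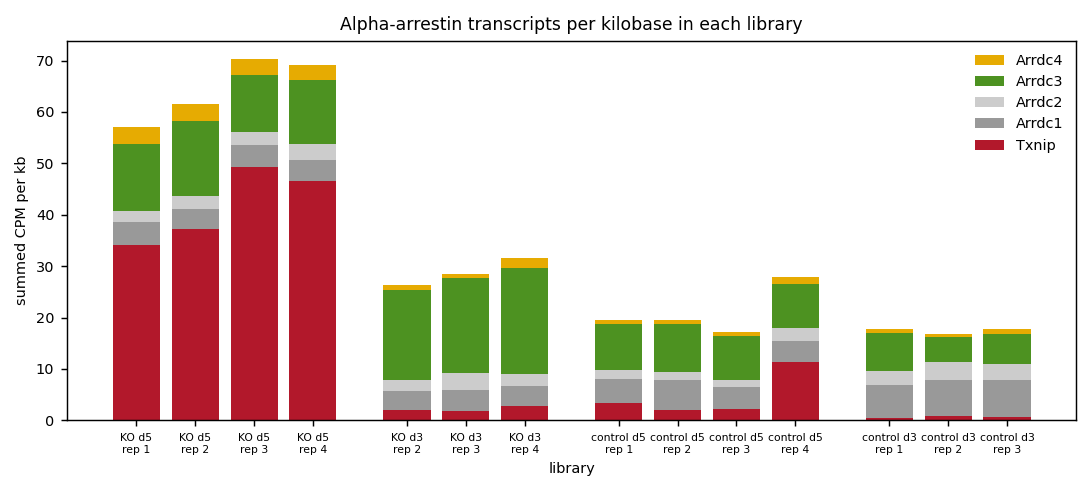
Summed CPM per kb of the 5 alpha-arrestin genes (y axis) in each library (x axis), with KO day 5, KO day 3, control day 5 and control day 3 from left to right and 1 colour per gene. Txnip is the largest part of each KO day 5 bar, Arrdc3 is the largest part of each KO day 3 bar, and control day 5 replicate 4 is the control bar with the most Txnip.

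Txn1, cytosolic thioredoxin and the protein that TXNIP binds, was lower in KO cells at both days. It had 99.5, 89.7, 105 and 106 CPM in KO libraries at day 5, against 199, 202, 180 and 173 CPM in control libraries at day 5. At day 3 it had 97.2, 75.1 and 92.5 CPM in KO libraries, against 143, 153 and 138 CPM in control libraries. KO and control did not overlap at either day, with log2 fold changes of -0.92 ± 0.084 at day 5 (adjusted p = 1.24e-06) and -0.70 ± 0.099 at day 3 (adjusted p = 5.96e-05). The effects at the 2 days differed by -0.22 ± 0.129 on the log2 scale (adjusted p = 0.277). A processed copy named Txn-ps1 lies on chromosome 1, and how reads that match several places were counted is not given in the sources used here.

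Txn2, the mitochondrial thioredoxin, was also lower in KO cells, and its KO libraries were close to each other. It had 72.3 to 76.6 CPM in KO cells and 89.6 to 104 CPM in control cells at day 5, and 74.1 to 77.6 CPM in KO cells and 101 to 116 CPM in control cells at day 3. The ranges did not overlap, with log2 fold changes of -0.38 ± 0.063 at day 5 (adjusted p = 0.000213) and -0.49 ± 0.074 at day 3 (adjusted p = 9.76e-05). Both thioredoxins thus fell in KO cells while Txnip was higher there.

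The ratio of Txn1 to Txnip transcripts, both per kilobase, summarises the opposite directions in KO against control cells. Between day 5 and day 3 the directions were not opposite: Txn1 had log2 0.16 ± 0.093 in KO and 0.38 ± 0.091 in control cells. The lower ratios at day 5 thus come from Txnip. It was 2.02 to 2.77 in KO cells at day 5 and 32.7 to 48.2 at day 3. In control cells it was 55.3, 94.5, 79.4 and 14.6 in replicates 1 to 4 at day 5, and 194 to 304 at day 3. Txn1 transcripts exceeded Txnip transcripts in all 14 libraries, by the least in KO cells at day 5. These are transcript ratios and give no protein amounts.

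Mlxip (MondoA), the glucose 6-phosphate sensor, differed little between groups. It had 42.0 to 49.0 CPM in KO cells and 50.3 to 57.3 CPM in control cells at day 5, and these ranges did not overlap (log2 -0.22 ± 0.065, adjusted p = 0.0108). At day 3 it had 43.7 to 45.1 CPM in KO cells and 42.9 to 46.9 CPM in control cells (log2 -0.01 ± 0.078, adjusted p = 0.901). Mlx, the partner through which MondoA and ChREBP bind DNA, had 22.3 to 23.9 CPM in KO cells and 29.5 to 31.4 CPM in control cells at day 5 (log2 -0.40 ± 0.064, adjusted p = 0.000135). At day 3 it had 21.6 to 23.2 CPM in KO cells and 26.4 to 29.0 CPM in control cells (log2 -0.29 ± 0.078, adjusted p = 0.00724). The day 3 call of Mlx was lost when only the day 3 groups were fitted (adjusted p = 0.0873). Mlx shares 67 bases with the neighbouring gene Psmc3ip. Mlxipl (ChREBP) was too low to test, with 4, 8, 1 and 1 summed counts in KO day 5, KO day 3, control day 5 and control day 3. Neither Mlxip nor Mlx was higher in KO cells at either day. These are transcript levels, and the part of Mlxip and Mlx in the levels of Txnip and Arrdc4 was not tested.

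Among the 8 genes other than Txnip, 3 were higher and 4 lower in KO cells at day 5, 7 in all, where 52.5% of the 14327 tested genes were called. At day 3, 2 were higher and 4 lower, 6 in all, where 50.9% of tested genes were called. The median log2 fold change of the 8 was -0.20 at day 5 and -0.30 at day 3, against 0.021 and -0.004 over all tested genes. KO and control did not overlap for 6 of the 8 at day 5 (47.4% of tested genes) and for 5 at day 3 (57.8%). A large share of all genes thus passed the same test, and the number of calls among the 8 is to be read beside that.

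The difference between the KO effects was called for 2 of the 8 genes, Arrdc3 and Arrdc1, where 14.3% of tested genes were called; the median over the 8 was 0.00, as over all tested genes (0). The count was 1 on leaving out any of 9 libraries in turn (KO day 3 replicates 2 and 3, KO day 5 replicates 1, 3 and 4, control day 3 replicates 2 and 3, control day 5 replicates 1 and 3) and 4 without control day 5 replicate 4. The number called over all tested genes moved too. It was 2052 with all libraries, 1275 to 1767 in those 9 fits and 2744 without control day 5 replicate 4. For day 5 against day 3, the contrast by which the genes were chosen, counts are given as a description from which nothing is read: 2 of the 8 had an adjusted p below 0.05 in KO cells (12.1% of tested genes) and 5 in control cells (38.3%). The groups did not overlap for 2 of the 8 in KO cells (26.9% of tested genes) and for 6 in control cells (42.7%). The median log2 fold change of the 8 between days was 0.05 in KO cells and 0.21 in control cells, against 0.011 and -0.002 over all tested genes.

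**Figure D3:**
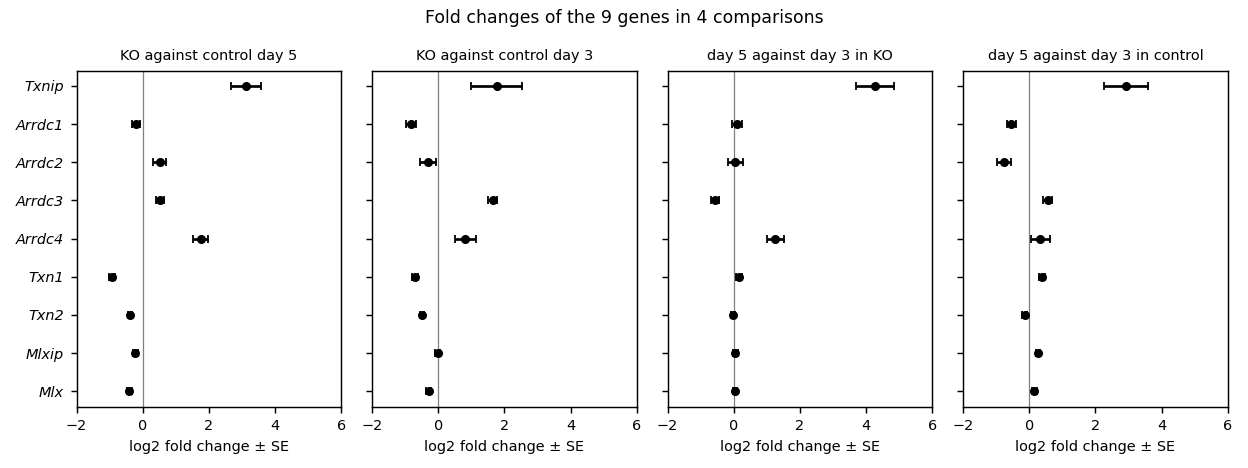
Log2 fold change (x axis) of the 9 genes (y axis) in 4 contrasts, KO with control cells at each day and day 5 with day 3 in each genotype; points are edgeR estimates and bars are SE. Txnip is at 3.12, 1.77, 4.27 and 2.92 in the 4 panels, Txn1 is at -0.92 and -0.70 in the KO against control panels, and Arrdc3 lies on opposite sides of 0 in the day panels, at -0.57 in KO and 0.56 in control cells.

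Of 27 genes of the thioredoxin system other than Txn1 and Txn2 (reductases, peroxiredoxins, thioredoxin-like proteins and their clients), 3 rose and 11 fell in KO cells at day 5 (26.3% and 26.2% of tested genes), and 6 rose and 9 fell at day 3 (24.6% and 26.2%). Their median log2 fold change was -0.14 at day 5 and 0.00 at day 3. Prdx5, a peroxiredoxin that thioredoxin recycles, fell by 1.04 ± 0.078 at day 5 (log2 -1.04, adjusted p = 2.27e-07) and by 0.42 ± 0.092 at day 3 (log2 -0.42, adjusted p = 0.00175). Txndc17, a thioredoxin-like oxidoreductase, fell at both days, with log2 -0.91 ± 0.071 at day 5 (adjusted p = 3.39e-07) and -0.77 ± 0.085 at day 3 (adjusted p = 6.32e-06). Prdx4, the peroxiredoxin of the endoplasmic reticulum, had -0.67 ± 0.056 and -0.61 ± 0.067 on the log2 scale at day 5 and day 3, and Txnl4a, a thioredoxin-fold splicing factor, had -0.59 ± 0.064 and -0.75 ± 0.075. Txnrd1, the cytosolic reductase that returns electrons to thioredoxin, averaged 215 ± 18.2 CPM in KO cells and 237 ± 20.3 CPM in control cells at day 5 (SD, n = 4 each) and did not pass the test at day 5 (adjusted p = 0.299) or at day 3 (adjusted p = 0.174).

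Among 9 tested of 10 genes of the network around MLX, MAX and the MXD repressors, 3 rose and 3 fell at each day, with a median of -0.06 at day 5 and -0.13 at day 3. Of all tested genes, 52.5% were called at day 5 and 50.9% at day 3. Mnt and Mxi1, repressors that pair with MAX, and in the case of Mnt also with MLX, fell in KO cells. Mnt had log2 -0.80 ± 0.081 at day 5 (adjusted p = 2.61e-06) and -1.08 ± 0.096 at day 3 (adjusted p = 1.03e-06). Mxi1 had log2 -0.69 ± 0.1 at day 5 (adjusted p = 6.62e-05) and -1.02 ± 0.116 at day 3 (adjusted p = 8.74e-06). Mxd1, a repressor of the same family that also pairs with MLX, rose by 0.52 ± 0.104 at day 5 (adjusted p = 0.000801) and by 0.77 ± 0.126 at day 3 (adjusted p = 0.000185). Myc, the activator that competes for MAX, rose at day 5 (log2 0.52 ± 0.11, adjusted p = 0.00126) and had log2 -0.31 ± 0.127 at day 3 (adjusted p = 0.0532).

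Of 17 tested of 18 genes of glucose uptake and glucose 6-phosphate handling, 2 rose and 9 fell in KO cells at day 5 (26.3% and 26.2% of tested genes), and 4 rose and 6 fell at day 3 (24.6% and 26.2%), with medians of -0.43 and -0.35. Slc2a1, which encodes GLUT1, the transporter that TXNIP removes from the cell surface, had 164, 169, 157 and 151 CPM in KO libraries at day 5, against 313, 398, 323 and 172 CPM in control libraries at day 5. It had 803, 694 and 550 CPM in KO libraries at day 3, against 1630, 1170 and 1060 CPM in control libraries. Slc2a1 fell in KO cells by 0.91 on the log2 scale at both days (SE 0.214 at day 5 and 0.247 at day 3, adjusted p = 0.00327 and 0.00779). Hk1, a hexokinase that makes glucose 6-phosphate, fell at day 5 (log2 -1.02 ± 0.1, adjusted p = 2.15e-06) and at day 3 (log2 -0.69 ± 0.114, adjusted p = 0.000209). Gpi1, the isomerase that draws glucose 6-phosphate into glycolysis, fell at day 5 (log2 -1.16 ± 0.121, adjusted p = 3.47e-06) and at day 3 (log2 -1.13 ± 0.139, adjusted p = 1.78e-05). Gfpt1, the entry enzyme of the hexosamine pathway, fell at day 5 (log2 -0.78 ± 0.087, adjusted p = 6.27e-06) and at day 3 (log2 -0.43 ± 0.102, adjusted p = 0.00284). Slc2a8, an intracellular glucose transporter, rose at day 5 (log2 0.94 ± 0.102, adjusted p = 5.22e-06) and at day 3 (log2 0.79 ± 0.121, adjusted p = 0.000115). Between day 5 and day 3 the list had a median log2 fold change of -0.83 in KO cells and -0.32 in control cells. Slc2a1 had -2.09 ± 0.231 in both KO and control cells, Gpi1 had -1.30 ± 0.129 in KO and -1.27 ± 0.128 in control cells, and Hk1 had -1.29 ± 0.107 in KO and -0.96 ± 0.105 in control cells. These genes were thus lower at day 5 in control cells too. Control day 5 replicate 4 thus had the most Txnip and the least Slc2a1 of the control libraries.

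Among the 9 ligases of the NEDD4 family that alpha-arrestins recruit, 2 rose and 3 fell in KO cells at day 5 and 3 rose and 3 fell at day 3, with medians of -0.57 and 0.07, where 52.5% of tested genes were called at day 5 and 50.9% at day 3. Nedd4, the founding ligase, fell at day 5 (log2 -0.38 ± 0.08, adjusted p = 0.0011) and rose at day 3 (log2 0.27 ± 0.092, adjusted p = 0.023), and the difference between these effects was called (log2 -0.66 ± 0.122, adjusted p = 0.0032). Smurf1 fell at both days (log2 -0.70 ± 0.101, adjusted p = 5.61e-05 at day 5; log2 -1.07 ± 0.118, adjusted p = 6.92e-06 at day 3), as did Wwp1 (log2 -0.57 ± 0.129, adjusted p = 0.0022; log2 -0.62 ± 0.153, adjusted p = 0.00406). Wwp2 rose (log2 0.38 ± 0.1, adjusted p = 0.00516 at day 5; log2 0.56 ± 0.119, adjusted p = 0.00134 at day 3).

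Of the other 8 genes with an arrestin or arrestin-like fold, 5 were tested, and 3 fell at day 5 while 2 rose and 3 fell at day 3, with medians of -0.17 and -0.56 (52.5% of tested genes called at day 5 and 50.9% at day 3). Vps26a, a retromer subunit, fell at day 5 (log2 -0.51 ± 0.07, adjusted p = 3.81e-05) and at day 3 (log2 -0.77 ± 0.082, adjusted p = 5.12e-06). Vps26c, its counterpart in the retriever complex, fell at day 5 (log2 -0.47 ± 0.067, adjusted p = 5.43e-05) and at day 3 (log2 -0.56 ± 0.079, adjusted p = 6.01e-05). Vps26b, a second retromer form, fell at day 5 (log2 -0.17 ± 0.049, adjusted p = 0.00938) and rose at day 3 (log2 0.20 ± 0.058, adjusted p = 0.00994). Arrb1, a beta-arrestin that desensitises receptors, rose at day 3 (log2 1.02 ± 0.205, adjusted p = 0.00101) and had log2 0.24 ± 0.167 at day 5 (adjusted p = 0.247).

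Some markers of other cell types differed between KO and control cells. Calls were made for 52.5% of all tested genes at day 5 and 50.9% at day 3, and the counts below are to be read beside that. The 12 markers of cartilage and bone summed to 1860 to 3860 CPM in KO cells at day 5 and 2350 to 2750 CPM at day 3. In control cells they summed to 274, 191, 368 and 2620 CPM in replicates 1 to 4 at day 5 and to 86 to 179 CPM at day 3, when Matn1 and Ibsp were at 0; Ibsp was also at 0 in control cells at day 5. Of the 10 tested cartilage and bone markers, 7 rose in KO cells at day 5 (26.3% of tested genes) and 9 at day 3 (24.6%). Col2a1, the collagen of cartilage, rose at day 3 (log2 4.90 ± 1.094, adjusted p = 0.00298) and had log2 1.74 ± 0.822 at day 5 (adjusted p = 0.0958). Control day 5 replicate 4 was the control library high in both the summed cartilage and bone markers and Txnip. Col2a1 alone had 2470 CPM in that library, so the sum is mostly this gene. For Sox9, Col9a1, Col9a2, Col9a3, Matn3 and Ibsp every day 5 control library was below every KO day 5 library. For Acan, Comp, Hapln1, Col11a2 and Matn1 the highest day 5 control value was within the KO day 5 range. Of 7 tested macrophage markers, 1 rose and 1 fell at day 5 and 4 fell at day 3. Between days in KO cells the 7 had a median log2 fold change of 0.21. Lyz2 was highest at 0.94 ± 0.264, followed by Csf1r at 0.64 ± 0.167, and Fcgr1 was lowest at -0.15 ± 0.608. The 8 macrophage markers summed to 68.9 to 120 CPM in KO cells and 74.6 to 103 CPM in control cells at day 5, and to 50.1 to 71.2 CPM in KO cells and 79.4 to 108 CPM in control cells at day 3. Of 6 tested endothelial markers, 2 rose at day 5, and 1 rose and 1 fell at day 3. Tek, an endothelial receptor, had log2 2.41 ± 0.251 at day 5 (adjusted p = 3.47e-06) and 2.11 ± 0.302 at day 3 (adjusted p = 6.25e-05). Kdr rose at day 5 (log2 0.84 ± 0.279, adjusted p = 0.0211), and Vwf fell at day 3 (log2 -2.84 ± 0.654, adjusted p = 0.0024). Emcn, Cdh5 and Esam were called at neither day. Of 4 tested epithelial markers, 2 rose at day 5 and 1 at day 3, with the cadherin Cdh1 at log2 4.46 ± 0.586 at day 5 (adjusted p = 2.68e-05) and 3.76 ± 0.621 at day 3 (adjusted p = 0.000203). Cdh1 rested on 7 summed counts in control cells at day 5 and 9 at day 3. Krt14 rose at day 5 (log2 2.62 ± 0.786, adjusted p = 0.0144), and Krt8 and Krt18 were called at neither day. Of 4 tested markers of skeletal muscle, 1 rose and 1 fell at day 5 and 3 rose at day 3, and of 4 neural markers 1 rose at each day. Of 3 adipocyte markers, 1 rose and 1 fell at day 3, and of 10 fibroblast markers 2 rose and 4 fell at day 5 and 5 rose at day 3. The sums of the endothelial, epithelial, neural and adipocyte lists were each at most 106 CPM in any library, and that of skeletal muscle at most 439 CPM. The part of these markers in the results, within and between genotypes, was not tested.

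**Figure D4:**
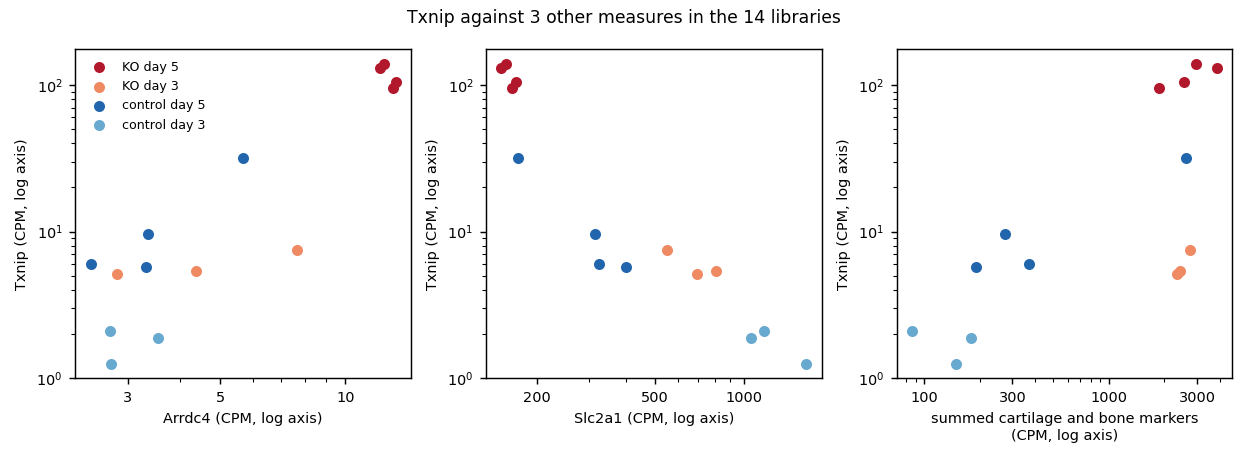
Txnip in CPM (y axis, logarithmic) against Arrdc4, Slc2a1 and the summed cartilage and bone markers, each in CPM (x axes, logarithmic), with 1 point per library and 1 colour per group. The KO day 5 libraries combine the highest Txnip with Arrdc4 of at least 12.1 CPM and Slc2a1 of at most 169 CPM, and the KO day 3 libraries have marker sums within the KO day 5 range with Txnip of at most 7.54 CPM. Col2a1 is the largest part of the marker sum in the KO and the day 5 control libraries.

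The genes most like Txnip were ranked by Pearson's r of log2 CPM over the 14 libraries among 11861 genes of at least 2 CPM on average. These libraries share embryos and fall into 4 groups, so r is a description. The top 5 were Uggt2, a glucosyltransferase of glycoprotein folding (r = 0.967), the microRNA host locus Mir3064 (0.958), Arl6ip1, a shaper of the endoplasmic reticulum (0.952), the homeobox gene Hoxb3 (0.945) and Izumo4, of a sperm-egg fusion family (0.941). Mir3064 lies within Ddx5, whose reads it may count. Their folds were smaller than those of Txnip: in KO against control at day 5, the log2 fold change was 0.55 ± 0.11 for Uggt2, 1.09 ± 0.187 for Mir3064, 0.42 ± 0.051 for Arl6ip1, 0.42 ± 0.089 for Hoxb3 and 0.43 ± 0.137 for Izumo4. Arrdc4 ranked 35 (r = 0.904), Arrdc3 had r = 0.398, Txn1 -0.356 and Txn2 -0.689.

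After the group means were removed, which leaves the spread within groups, the 5 genes most like Txnip were Mcee, an epimerase of propionate breakdown (r = 0.975), the ligase Wwp2 (0.974), the exporter Abcc5 (0.970), the natriuretic peptide receptor Npr2 (0.963) and the autophagy receptor Nbr1 (0.959). Without control day 5 replicate 4, left out here after its Txnip level had been seen, r was 0.924, 0.872, 0.935, 0.810 and 0.788 for these genes in the same order. Of the other members, Arrdc2 had the highest within-group r (0.731), followed by Arrdc4 (0.678). These values include control day 5 replicate 4 and were not computed without it.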

How the data were processed

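Polyadenylated RNA of 14 fibroblast libraries was sequenced as stranded libraries, per the labels' protocols. Counting used featureCounts on mm10, per the submitters' processing notes. The sources used here do not name the aligner, the annotation release, or the strand and multi-mapping settings. The values the authors deposited are raw whole-number counts per gene. Each file had 27179 lines, of which 909 without an identifier (0.194% to 0.315% of a library's counts) were left out; 26270 identifiers remained, and 25275 matched a symbol. Xist, Tsix and Y-linked genes were kept out of tests.

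Tests used edgeR 4.0.16 in R 4.3.3 (filterByExpr, TMM, robust quasi-likelihood fit, 1 mean per group over all 14 libraries, so that the 4 groups share an estimate of the spread), with Benjamini-Hochberg adjustment over 14327 genes and a threshold of 0.05, and were checked on simulated data. Fold changes are unshrunk and CPM uses TMM-scaled totals. CPM per kb divides by the gene length in the files. DESeq2 1.42.0 served alternatives. The 9 genes and all lists were chosen with earlier results of these data known. Genes were named by a rule: all 9; from each pathway list up to 4 with the smallest adjusted p in KO against control at day 5, plus Txnrd1, Mlxipl, Slc2a1 and Nedd4; and the 5 most like Txnip by each measure. The labels' embryo identifiers pair libraries of both days; the deviations of such libraries from their group means had correlations between -0.023 and 0.204. Libraries of the same group differed from each other by more than counting error, with chi-square per degree of freedom of at least 3.3 for each pair. Pairs from different groups were not compared in this way. Within each group the libraries came from separate embryos, apart from the 2 day 3 control libraries of embryo 218-e1. Embryos 136-e2-II, 153-e3, 153-e5, 218-e1 and 218-e6 gave libraries at both days. The main fit had no embryo term and treated all 14 libraries as independent. Its p-values thus measure the spread between libraries, which are not all separate embryos. Alternatives were DESeq2 size factors, DESeq2, no filter, only the groups compared, sex, a block by replicate number or embryo, the same-embryo controls summed, and each library left out.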

Additional observations from a re-analysis of the deposited data

Results flagged for a closer look

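Txnip in control day 5 replicate 4, at 31.5 CPM, lay far from the other 3 day 5 controls (5.71 to 9.59 CPM): its gap to the nearest was 0.85 of the group's range. The 9 genes were screened in the 2 groups of 4 libraries, 18 sets in all, and chance flags about 1 in 20. The same library had 5.67 CPM of Arrdc4, against 2.44 to 3.35 CPM in the other day 5 controls.

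The KO effect on Arrdc3 differed between the days by -1.13 (log2, day 5 minus day 3; edgeR adjusted p = 0.00127). In KO cells all 3 embryos sampled at both days had less Arrdc3 at day 5, and in control cells both embryos sampled at both days had more. These libraries are part of the same fit, so the embryo ratios are not separate evidence.

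The KO effect on Arrdc1 differed between the days by 0.64 (log2, edgeR adjusted p = 0.0392). Its adjusted p was above 0.05 without KO day 3 replicate 2 (0.0936), replicate 3 (0.0536) or replicate 4 (0.0689), KO day 5 replicate 1 (0.0668), replicate 3 (0.0766) or replicate 4 (0.0604), control day 3 replicate 2 (0.0862) or replicate 3 (0.0938), and control day 5 replicate 1 (0.0656) or replicate 3 (0.0665).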

How the results depend on the processing

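KO-to-control calls of Arrdc3, Txn1 and Txn2 at both days, of Arrdc1 at day 3 and of Arrdc4, Mlxip and Mlx at day 5 kept their direction and their call under all alternatives run. The number of genes called for the difference between KO effects, 2 with the settings used, was 1 with no filter on low counts and 1 with the same-embryo controls summed, and 1 to 4 on leaving out each library. Over all tested genes that number was 2052 with the settings used. It was 1676 with no filter, 1807 with the controls summed and 1275 to 2744 on leaving out each library. On leaving out each library, the number called between days was 1 to 2 in KO cells and 3 to 5 in control cells. Over all tested genes it was 1024 to 1599 in KO cells, against 1728 with all libraries. In control cells it was 4362 to 5686, against 5481. Values near 0 of uncalled genes changed sign: Mlxip in KO against control at day 3 was 0.00 with DESeq2, 0.01 with no filter, 0.02 with only the groups compared and 0.02 without control day 3 replicate 1. Arrdc2 between days in KO cells was -0.01 with sex as a covariate, and on leaving out each library from -0.10 (without KO day 3 replicate 2; -0.05 without KO day 5 replicate 4) to 0.17; Mlx was from -0.00 (without KO day 3 replicate 4) to 0.07. The cause was not tested. The log2 fold change of Txnip in KO against control at day 3 was 1.34 with sex as a covariate.

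With replicate number as a block, the KO-to-control log2 fold change at day 3 was 1.43 for Txnip and 0.60 for Arrdc4 (adjusted p = 0.104), and 7 of the 8 genes were called at day 5 and 5 at day 3. The block called 3 genes for the difference between KO effects: Arrdc1 (0.63, adjusted p = 0.0733) was lost, and Arrdc2 (1.00, 0.0446) and Arrdc4 (1.21, 0.0427) were gained. Over all tested genes it called 7873 at day 5, against 7519 without it, and 6861 at day 3, against 7286. For the difference between KO effects it called 2150 of all tested genes, against 2052. The numbers name different embryos in the genotypes; same-numbered KO and control libraries had deviations correlated between -0.166 and 0.428, and at day 5 4 of 8 libraries correlated best with their own number. With the embryo as a block, which pairs the days, the descriptive counts between days were 2 of the 8 genes in KO cells and 4 in control cells. Over all tested genes the embryo block called 1777 in KO cells, against 1728 without it, and 4293 in control cells, against 5481.

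Depth limits Txnip and Arrdc4 most, with 11 and 6 counts in KO day 3 replicate 3.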
